A study of Mus musculus with 8 samples.

Results

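The mitochondrial respiratory chain and the ATP synthase are built from subunits that are mostly encoded in the nucleus, and 84 such genes were described here in the left ventricle of the mouse heart. They were chosen by name and not by how they differed: genes of the count table whose symbol is that of a subunit of NADH dehydrogenase (complex I), succinate dehydrogenase (complex II), the cytochrome bc1 complex (complex III), cytochrome c oxidase (complex IV) or ATP synthase (complex V), with a mean of at least 10 counts over the 8 libraries. Of the 41096 genes in the table, 84 fitted the names, and the minimum removed none of them. Complex I had 36 members, complex II 4, complex III 9, complex IV 18 and complex V 17. Of these, 81 are subunits, and Atp5s, Atp5sl and Cox7a2l are related proteins that carry a subunit's name. Ndufa4 and Ndufa4l2, named after complex I, were counted with complex IV, where Ndufa4 is now placed.

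The libraries were made from total RNA of the left ventricle of mice that were 12 weeks old when their diets began. They came from 4 mice labelled Normal Chow, and 4 labelled HFD-LNAME, which ate high-fat food containing 0.5% L-NAME, a drug that blocks nitric oxide synthases, for 9 weeks. The labels write the strain of all 8 mice as C57BL/5NJ and give no sex, genotype, batch or date. Cohorts with intact (NNT+/+) and deleted (NNT-/-) transhydrogenase appear in the design text, which speaks of male and female mice, but no library here is labelled with either genotype. The titles of all 8 samples begin with N_, which the titles do not spell out. Separate litters or cages are not stated, so p-values set the group difference against the spread among these 8 libraries within their groups.

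Complexes I and II pass electrons from NADH and succinate to ubiquinone, complex III passes them on to cytochrome c, and complex IV hands them to oxygen. Complexes I, III and IV pump protons as they do so, and complex V uses the returning protons to make ATP, which the beating heart consumes without pause. Several complex IV subunits come in pairs of genes, 1 made mainly in heart and skeletal muscle and 1 in most other tissues, so their ratio shows which form prevails in a sample.

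Library totals ran from 31522074 to 52053633 counts, and each HFD-LNAME total was below each Normal Chow total (41047658 at most against 41852705 at least). Levels are given as CPM, counts scaled to a common library size with TMM factors. The 10 ventricular cardiomyocyte markers summed to between 77665 and 104485 CPM and were present in all 8 libraries. The atrial light chain gene Myl7 stood at 216 to 686 CPM in Normal Chow 1 and 3 and in HFD-LNAME 2, 3 and 4, and at 0.714 to 10.2 CPM in the other 3 libraries. Below, these sets are called the libraries with and without atrial transcripts. The name stands for the Myl7 level alone, as 12 atrial markers still summed to 1067 to 1376 CPM in the latter. The adipocyte lipid droplet gene Plin1 stood at 12.0 CPM in HFD-LNAME 2 and 8.73 CPM in HFD-LNAME 3, and at 2.57 CPM or less elsewhere. HFD-LNAME 3, the shallowest library, was also low for most members, so the median of the members, the lists and the members whose values turn on it are also given without it. In tissue RNA of this kind, fewer cells of a type and less RNA per cell cannot be told apart.

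The pair that differed most between the diets was Cox8b, the heart and skeletal muscle form of a small complex IV subunit, and Cox8a, its broadly made partner. Their promoters are shown here, with those of the next pair, Cox7a1 (heart and muscle) and Cox7a2 (broad), because each pair encodes 1 position of the complex from different control regions. Sequences are from RefSeq on GRCm38.p6, which is not the strain annotation of the count table, and run 5′ to 3′ from 250 bases before the transcript start to 50 after it. The Cox8b window is chr7:140900397-140900696 on the minus strand, that of Cox8a is chr19:7217567-7217866 on the minus strand, that of Cox7a1 is chr7:30183921-30184220 on the plus strand and that of Cox7a2 is chr9:79759804-79760103 on the minus strand. Capitals mark CAGCTG, a muscle-type E-box, and CCGGAAG in either orientation, a letter string of the ETS type that GABP binds.
Cox8b: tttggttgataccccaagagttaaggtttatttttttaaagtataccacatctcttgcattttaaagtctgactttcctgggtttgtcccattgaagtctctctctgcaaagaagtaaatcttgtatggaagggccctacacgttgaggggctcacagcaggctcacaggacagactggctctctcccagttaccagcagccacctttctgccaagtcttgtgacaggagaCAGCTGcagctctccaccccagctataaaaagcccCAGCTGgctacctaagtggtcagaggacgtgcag
Cox8a: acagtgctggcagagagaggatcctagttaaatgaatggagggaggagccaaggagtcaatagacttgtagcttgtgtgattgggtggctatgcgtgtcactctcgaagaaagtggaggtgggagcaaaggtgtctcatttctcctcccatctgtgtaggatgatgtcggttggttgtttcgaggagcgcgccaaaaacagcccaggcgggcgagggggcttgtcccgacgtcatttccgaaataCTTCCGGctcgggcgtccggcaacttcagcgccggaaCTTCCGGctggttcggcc
Cox7a1: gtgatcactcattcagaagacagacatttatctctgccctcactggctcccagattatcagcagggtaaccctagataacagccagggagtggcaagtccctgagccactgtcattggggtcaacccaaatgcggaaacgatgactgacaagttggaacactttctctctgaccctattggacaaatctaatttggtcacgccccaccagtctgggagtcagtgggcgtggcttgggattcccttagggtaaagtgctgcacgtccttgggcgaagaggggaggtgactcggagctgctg
Cox7a2: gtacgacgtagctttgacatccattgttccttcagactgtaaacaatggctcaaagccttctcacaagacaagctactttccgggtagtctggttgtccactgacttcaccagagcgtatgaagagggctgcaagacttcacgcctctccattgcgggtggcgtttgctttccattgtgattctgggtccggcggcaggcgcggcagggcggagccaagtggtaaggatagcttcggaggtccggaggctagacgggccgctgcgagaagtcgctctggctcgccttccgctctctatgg

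Cox8b held CAGCTG at 2 places and CCGGAAG at none, Cox8a held CCGGAAG at 2 places and CAGCTG at none, and neither string was in the Cox7a1 or Cox7a2 window. RefSeq windows were matched for 69 of the 84 members. CCGGAAG was in 16 of them (23.2%), against 9.93% of the windows of all 27025 genes. CAGCTG was in 6 (8.70%), against 18.3% of all genes. The palindrome bound by NRF-1 was in 17 (24.6%), against 5.19%. All were searched on both strands, the marked strings do not overlap one another in the windows shown, and all were chosen after the sequences and results were seen. By complex, the NRF-1 string was in 7 of 32 windows of complex I, 2 of 3 of complex II, 1 of 5 of complex III, 1 of 13 of complex IV and 6 of 16 of complex V. A match describes letters and not a bound site.

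In chow-fed hearts the members covered a wide range of levels. Per kilobase of transcript, Cox4i1, the main form of the regulatory subunit of complex IV, was highest at 3424 ± 230 CPM per kilobase (SD, n = 4), followed by Atp5b, the catalytic beta subunit of ATP synthase, at 3166 ± 152 and its alpha partner Atp5a1 at 2268 ± 124. The gap between Cox4i1 and Atp5b was smaller than their SDs together, whereas Atp5a1 stood apart from both. Atp5g3, 1 of 3 genes for the same c ring protein, came next at 1960 ± 112 CPM per kilobase, then Cox7a1 at 1349 ± 131. The first 5 genes had the same order in HFD-LNAME, and the genes at positions 6 and 7, Ndufa4 (1248 ± 44.1 in chow) and Cox6a2 (1180 ± 103), changed places within their spread.

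The median level per kilobase in chow was 328 CPM for complex I, 534 for complex II, 660 for complex III, 616 for complex IV and 784 for complex V. Complex I stands at the lower end. The lowest members were Cox6b2, the testis form, at 2.28 ± 1.44 CPM per kilobase, Cox4i2, the lung and hypoxia form, at 6.15 ± 2.13, and Ndufa4l2, a gene known to respond to hypoxia, at 10.1 ± 3.19. Lengths are those of 1 annotated transcript per gene, so values are doubtful where that transcript is unusually long, as for Ndufb2 (4371 bases) and Atp5g1 (4715 bases). Processed copies are common for small mitochondrial genes, and how reads shared with such copies were counted is not given in the sources used here.

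Together the 84 members took 5.22, 5.43, 5.22 and 5.50% of the counts in Normal Chow 1 to 4 and 5.53, 5.14, 4.64 and 5.44% in HFD-LNAME 1 to 4. Their summed level was 51105, 54305, 52260 and 56733 CPM in the chow libraries and 57786, 49678, 44375 and 55945 CPM in HFD-LNAME 1 to 4. The highest and the lowest sums were thus both in the HFD-LNAME group, and the groups overlapped. Complex V, carried by the abundant alpha and beta subunits, summed to 20629 ± 927 CPM on chow and 20320 ± 2422 in HFD-LNAME. Complex I summed to 13152 ± 650 and 12525 ± 1422 CPM, complex II to 4322 ± 188 and 4262 ± 421, complex III to 6615 ± 282 and 6258 ± 612, and complex IV to 8884 ± 493 and 8581 ± 1357. In all 5 complexes the difference between the group means was smaller than the SD of the HFD-LNAME group, and the groups overlapped. Without HFD-LNAME 3 the HFD-LNAME mean over all members was 54470 ± 4250 CPM, above the chow mean of 53601 ± 2472.

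**Figure D1:**
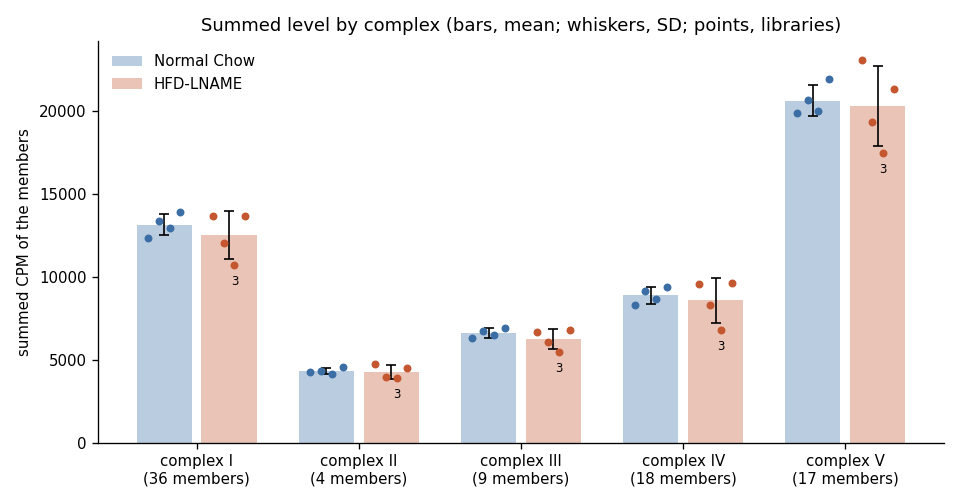
Summed CPM of the members of each complex in each library, with bars for the group mean and whiskers for the SD (n = 4 each). The HFD-LNAME points spread wider than the chow points, and HFD-LNAME 3, marked 3, is the lowest point in all 5 complexes, at 10728 CPM in complex I and 17504 CPM in complex V.

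The comparison of HFD-LNAME with Normal Chow asks whether the diet and nitric oxide synthase inhibition altered the transcripts of the respiratory chain. No member passed the test: 0 of 84 had an edgeR adjusted p under 0.05, where 0.0134% of all 14875 genes tested did (2 genes). At an unadjusted p under 0.05, 0 members were higher, against 5.02% of all genes, and 1 was lower, against 4.54%. With DESeq2 the adjusted count was also 0 of 84 (1.09% of all genes), and its unadjusted p gave 1 higher (Cox8a) and 1 lower (Ndufs8), against 4.34% and 3.14% of all genes. With limma-voom it was 0 of 84 (0.0% of all genes), and the unadjusted p gave 0 higher and 1 lower (Ndufs8), against 5.17% and 4.62%. The authors' deposited table likewise had 0 of 84 members at an adjusted p under 0.05, against 1.1% of all genes with an adjusted p. It had 2 members at an unadjusted p under 0.05, Ndufs8 and Cox8a, where 7.57% of all genes passed.

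The intervals were narrow. For 80 of the 84 members the 95% interval of the fold change lay within 1.5-fold in either direction. The other 4 were Cox8a and the scarce isoforms Cox4i2, Cox6b2 and Ndufa4l2. The members' log2 fold changes ran from -0.20 (Ndufs8) to 0.72 (Cox6b2), with a median of -0.07 against 0.00 over all genes tested. They were below 0 for 64 of 84 members (76.2%), against 49.5% of all genes. The median was -0.09 in complex I, -0.04 in complex II, -0.07 in complex III, -0.05 in complex IV and -0.04 in complex V, and differences between complexes were not tested. The median rests on 1 library: without HFD-LNAME 3 it was 0.02, with 36 of 84 members below 0. At an unadjusted p under 0.05, 2 members were then higher (Cox7a2 and Cox8a), against 4.24% of all genes, and 0 lower, against 4.18%.

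**Figure D2:**
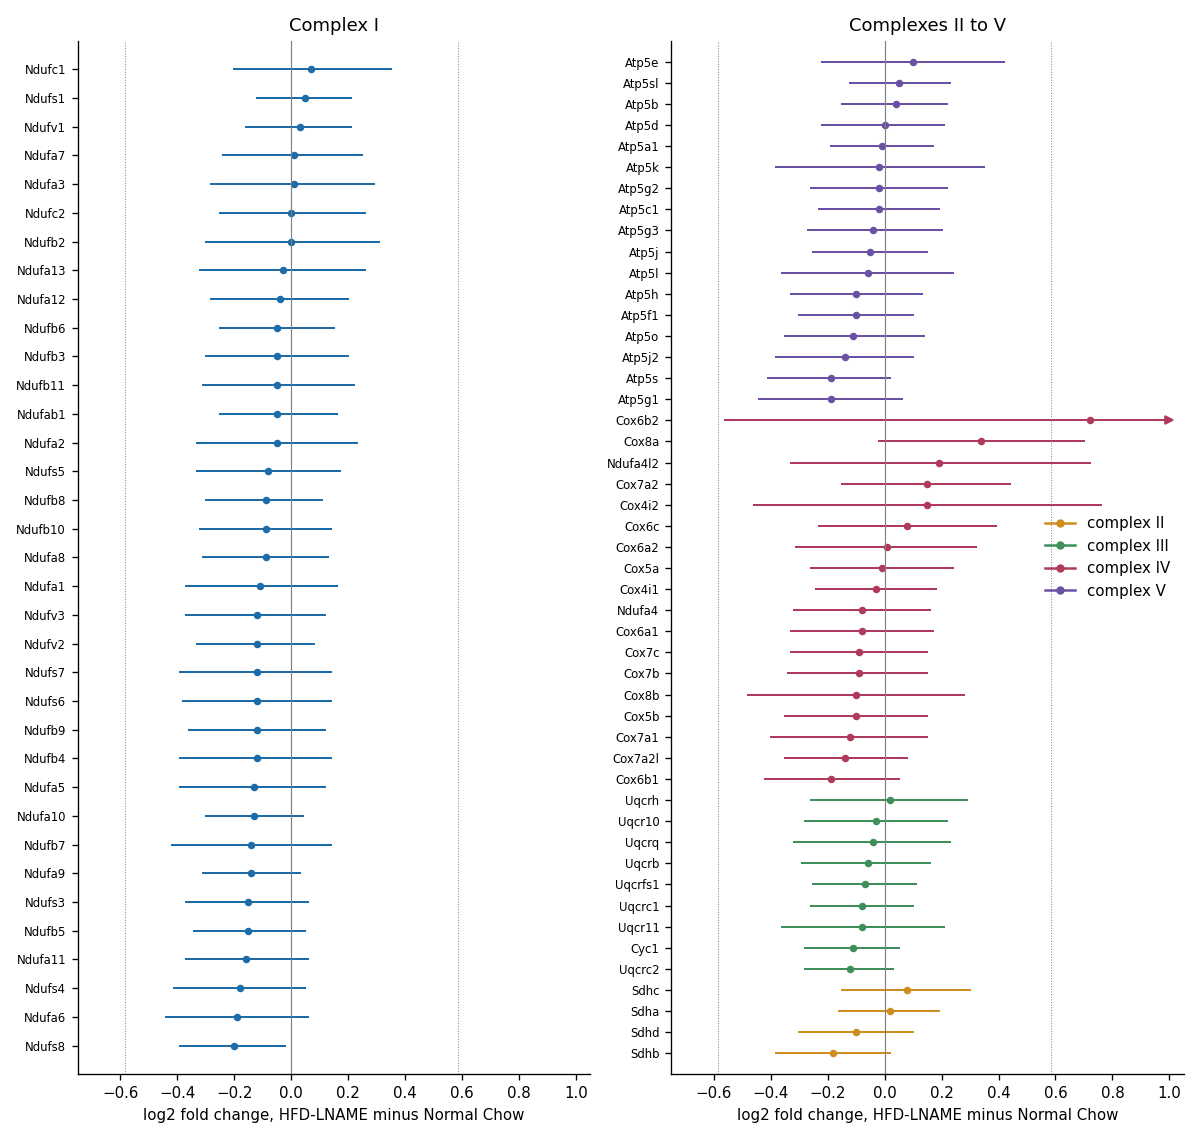
Log2 fold change (HFD-LNAME minus Normal Chow) of the members reported, each with its 95% interval from edgeR, complex I on the left and complexes II to V on the right, dotted lines at 1.5-fold. Most points lie slightly left of 0 and all intervals but that of Ndufs8 include 0; the interval of Cox6b2, 0.72 with an upper end of 2.01, runs past the axis.

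Complex I takes electrons from NADH through a flavin and a chain of iron-sulphur clusters held by nuclear-encoded core subunits. Ndufs8, a core subunit that holds clusters near the ubiquinone end, stood at 202, 215, 210 and 219 CPM in the chow libraries and at 200, 191, 158 and 186 CPM in HFD-LNAME 1 to 4. All HFD-LNAME libraries were below all chow libraries, by a narrow margin in HFD-LNAME 1, and Ndufs8 was the 1 member whose groups did not overlap, against 3.24% of all genes in this direction; in the other direction there were 0 members, against 2.74%. Its log2 fold change was -0.20 ± 0.08 (SE), with an unadjusted p of 0.0363 and an edgeR adjusted p of 0.484, and it was -0.13 ± 0.07 without HFD-LNAME 3.

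Other core subunits gave values on both sides of 0. Ndufv1, which binds NADH and flavin, stood at 963, 1003, 944 and 1022 CPM on chow and 1102, 901, 918 and 1088 CPM in HFD-LNAME, and Ndufs1, the largest cluster-bearing subunit, at 980, 1011, 965 and 1073 against 1146, 979, 1005 and 1027 CPM. The groups overlapped for both genes, with log2 fold changes of 0.03 ± 0.09 and 0.05 ± 0.08. For the core subunits Ndufv2, Ndufs3 and Ndufs7 it was -0.12 ± 0.09, -0.15 ± 0.10 and -0.12 ± 0.12, and without HFD-LNAME 3 -0.04 ± 0.08, -0.08 ± 0.09 and -0.03 ± 0.11. The lowest library of Ndufv1 and of Ndufs1 was not HFD-LNAME 3.

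The 29 accessory subunits, which surround and stabilise the core, had a median log2 fold change of -0.09, with 24 below 0 and 5 above. The highest in complex I was Ndufc1, a small membrane subunit, at 94.5, 125, 118 and 118 CPM on chow and 126, 125, 91.8 and 136 CPM in HFD-LNAME (log2 fold change 0.07 ± 0.13, and 0.18 ± 0.10 without HFD-LNAME 3). HFD-LNAME 1, 2 and 4 stood at or above the chow range and HFD-LNAME 3 below it. The accessory subunit Ndufs4, whose loss in mice impairs complex I assembly, stood at 227 ± 10.4 CPM on chow and 200 ± 29.4 in HFD-LNAME, and Ndufab1, the mitochondrial acyl carrier protein, at 364 ± 23.0 and 352 ± 39.2 CPM. Both are named outside the rule for named genes, after their values were seen.

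Complex II is made wholly from nuclear genes. Sdhb, its iron-sulphur subunit, stood at 726, 763, 700 and 806 CPM on chow and 731, 640, 567 and 701 CPM in HFD-LNAME. HFD-LNAME 2 and 3 were below the chow range and HFD-LNAME 1 and 4 within it, and the log2 fold change of -0.18 ± 0.09 had an edgeR adjusted p of 0.559 and was -0.12 ± 0.08 without HFD-LNAME 3. Sdhc, a membrane anchor, was the other way, at 571, 650, 608 and 612 CPM against 674, 583, 556 and 764 CPM, with the 2 highest and the lowest libraries all in HFD-LNAME (0.08 ± 0.10). The flavin subunit Sdha, the most abundant of the 4 by CPM, had 0.02 ± 0.08 and the second anchor Sdhd -0.10 ± 0.09.

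In complex III, 8 of 9 members had a log2 fold change below 0 and all 9 were lowest in HFD-LNAME 3. Uqcrc2, a core protein of the matrix arm, stood at 1396, 1351, 1360 and 1510 CPM on chow and 1372, 1247, 1220 and 1320 CPM in HFD-LNAME. Only HFD-LNAME 1 reached the chow range, and the log2 fold change was -0.12 ± 0.07 (edgeR adjusted p 0.629). Among the redox subunits, cytochrome c1 (Cyc1) stood at 931 ± 40.0 and 860 ± 63.1 CPM and the Rieske protein Uqcrfs1 at 899 ± 43.1 and 857 ± 80.1 CPM. Uqcrh, the hinge protein that contacts cytochrome c1, was the highest of the complex at 0.02 ± 0.13 (0.14 ± 0.08 without HFD-LNAME 3), with 317 CPM in HFD-LNAME 3 and 452 to 517 CPM in the other HFD-LNAME libraries.

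Complex IV held the members with the highest log2 fold changes. Cox8a stood at 14.8, 22.9, 17.2 and 15.8 CPM on chow and 23.0, 24.7, 16.6 and 25.4 CPM in HFD-LNAME. HFD-LNAME 1, 2 and 4 were above all chow libraries and HFD-LNAME 3 within them. The log2 fold change was 0.34 ± 0.16, with an unadjusted p of 0.0588 and an edgeR adjusted p of 0.546, and 0.46 ± 0.15 without HFD-LNAME 3 (edgeR adjusted p 0.451). Cox8b, its muscle partner, stood at 293, 456, 340 and 375 CPM on chow and 378, 319, 240 and 429 CPM in HFD-LNAME, with overlapping groups and a log2 fold change of -0.10 ± 0.17, and 0.04 ± 0.15 without HFD-LNAME 3.

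Within a library, the log2 ratio of Cox8b to Cox8a counts cancels depth and scaling, but not a trend with transcript length. Cox8b is shorter than Cox8a (360 against 550 bases) and Cox7a1 than Cox7a2 (393 against 659). Cox6a2 is longer than Cox6a1 (680 against 571). The part of length in the ratios was not tested. The Cox8b to Cox8a ratio was 4.31, 4.32, 4.31 and 4.56 on chow and 4.04, 3.69, 3.85 and 4.08 in HFD-LNAME 1 to 4. Every HFD-LNAME library was below every chow library. The difference of -0.46 (4.37 ± 0.13 against 3.91 ± 0.18, SD, n = 4 each) had a two-sided exact permutation p of 0.0286, the smallest that 70 arrangements allow. Adjusted over the 5 isoform ratios compared, the exact permutation p was 0.143, so the difference did not pass the threshold. In counts per kilobase Cox8b was 31.7-fold above Cox8a on chow and 23.0-fold above it in HFD-LNAME, and the muscle form prevailed in all 8 libraries.

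Among the libraries with Myl7 above 200 CPM the ratio was 4.31 and 4.31 in chow against 3.69, 3.85 and 4.08 in HFD-LNAME. Among the rest it was 4.32 and 4.56 against 4.04. As the groups do not overlap, any subset of libraries gives a lower ratio in HFD-LNAME, so this direction was fixed in advance. The part of atrial tissue in the ratio was not tested. Without HFD-LNAME 2 and 3 the difference was -0.31 (exact permutation p 0.133), and its direction was fixed in the same way. Plin1 in HFD-LNAME 1 and 4 was 1.60 and 2.57 CPM, against 2.13, 0.444, 0.742 and 0.466 CPM in Normal Chow 1 to 4. Cfd (2.77 and 2.16 CPM) and Cidea (43.8 and 40.7 CPM) were above all chow libraries there (1.56 and 36.0 CPM at most). Thrsp (14.9 and 22.4 CPM) was below all chow libraries (29.1 CPM or more). Markers of other cell types are given beside the Cox8b to Cox8a ratio. The 8 smooth muscle and pericyte markers summed to 690 to 896 CPM on chow and 908 to 1082 CPM in HFD-LNAME, and 3 of them were higher at an unadjusted p under 0.05 and 0 lower, against 5.02% and 4.54% of all genes, the shares to read beside each list that follows. Of the adipocyte markers 9 of 12 were tested, with 7 higher and 1 lower at that threshold. Their sums were 520 to 639 CPM on chow and 520 to 823 in HFD-LNAME, highest in HFD-LNAME 1. The sum does not follow Plin1, Cfd, Cidec and Pck1, each at 3.43 CPM or less in HFD-LNAME 1. These genes were highest in HFD-LNAME 2 and 3, whereas Cidea was highest in HFD-LNAME 1 and Thrsp in Normal Chow 2. The brown fat gene Ucp1 stood at 11.5 and 5.03 CPM in HFD-LNAME 2 and 3 and at 0.335 CPM or less elsewhere. Of 8 endothelial markers 2 were higher, with sums of 819 to 903 and 801 to 1106 CPM. Of 8 fibroblast markers 1 was higher, with sums of 1007 to 1356 and 1003 to 1504 CPM. Of 7 macrophage markers tested 0 were higher or lower at an unadjusted p under 0.05 by edgeR, with sums of 126 to 231 and 153 to 224 CPM. Of 10 ventricular cardiomyocyte markers 0 were higher and 3 lower, with 8 below 0 and sums of 88493 to 104485 and 77665 to 100294 CPM. The part of these cell types in the ratio was not tested.

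Cox7a1 and Cox7a2 encode the same position in muscle and in other tissues. Cox7a1 stood at 470, 590, 511 and 550 CPM on chow and 556, 490, 367 and 536 CPM in HFD-LNAME, and Cox7a2 at 215, 207, 226 and 212 against 272, 269, 165 and 246 CPM. For Cox7a2, HFD-LNAME 1, 2 and 4 were above all chow libraries and HFD-LNAME 3 was below them all. Its log2 fold change was 0.15 ± 0.14, and 0.29 ± 0.08 without HFD-LNAME 3 (edgeR adjusted p 0.784 and 0.349). The log2 ratio of Cox7a1 to Cox7a2 was 1.13, 1.51, 1.17 and 1.37 on chow and 1.03, 0.87, 1.15 and 1.12 in HFD-LNAME. The groups met at a narrow overlap, and the difference of -0.25 had an exact permutation p of 0.0571, or 0.143 adjusted over the 5 ratios.

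The third pair gave a difference near 0. Cox6a2, the muscle form, stood at 725, 874, 761 and 847 CPM on chow and 913, 769, 570 and 974 CPM in HFD-LNAME, and Cox6a1, the broad form, at 57.3, 53.0, 52.5 and 50.7 against 57.7, 56.0, 39.3 and 49.3 CPM. The groups overlapped for both genes, and the log2 ratio was 3.91 ± 0.19 on chow and 3.98 ± 0.23 in HFD-LNAME (difference 0.07, exact permutation p 0.686, also 0.686 adjusted). Over the 3 muscle forms the median log2 fold change was -0.10 with 2 of 3 below 0, and over the 3 broad partners it was 0.15 with 1 of 3 below 0.

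**Figure D3:**
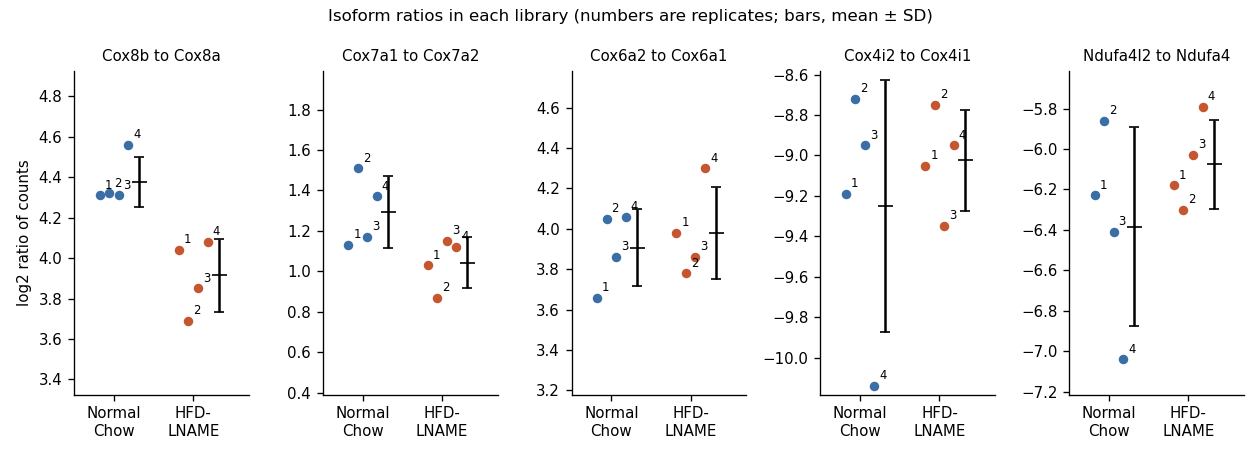
Log2 ratio of counts of each complex IV isoform pair in each library, with replicate numbers beside the points and the mean ± SD of 4 libraries; each panel spans the same log2 range. The Cox8b to Cox8a groups do not overlap (4.31 or more in chow, 4.08 or less in HFD-LNAME), the Cox7a1 to Cox7a2 groups touch, and the other 3 pairs overlap.

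The isoforms linked to hypoxia or to tissues other than heart stayed scarce. Cox4i2 stood at 4.23, 6.23, 5.05 and 2.52 CPM on chow and 5.35, 5.63, 3.34 and 5.69 CPM in HFD-LNAME, beside 2486 to 2862 and 2185 to 2845 CPM of Cox4i1. Ndufa4l2 stood at 9.78, 13.2, 8.73 and 6.05 CPM against 11.0, 8.78, 8.67 and 14.8 CPM, beside 737 to 796 and 569 to 822 CPM of Ndufa4. The groups overlapped for all 4 genes. The log2 ratio of Cox4i2 to Cox4i1 differed by 0.23 (exact permutation p 0.686) and that of Ndufa4l2 to Ndufa4 by 0.31 (exact permutation p 0.314), or 0.686 and 0.524 adjusted over the 5 ratios. Cox6b2 stood at 0.207 to 2.22 CPM on chow and 1.37 to 4.03 CPM in HFD-LNAME, so that its log2 fold change of 0.72 ± 0.59 rests on few counts.

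Among the remaining complex IV members, Cox6b1, the subunit that faces the intermembrane space, stood at 671, 708, 689 and 743 CPM on chow and 681, 604, 491 and 696 CPM in HFD-LNAME. HFD-LNAME 2 and 3 were below the chow range and the other pair within it, and the log2 fold change of -0.19 ± 0.11 had an edgeR adjusted p of 0.618. Without HFD-LNAME 3 it was -0.09 ± 0.08, and without HFD-LNAME 2 and 3 -0.03 ± 0.08. The structural subunit Cox7b stood at 604 ± 16.4 and 567 ± 93.2 CPM. Cox7a2l, a factor that joins complexes III and IV into supercomplexes, stood at 190 ± 8.62 and 173 ± 22.6 CPM with a log2 fold change of -0.14 ± 0.10, and -0.05 ± 0.08 without HFD-LNAME 3.

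In complex V the catalytic head and central stalk (Atp5a1, Atp5b, Atp5c1, Atp5d and Atp5e) had a median log2 fold change of 0.00, with 0 of 5 past the test. Atp5b stood at 5892, 6117, 5801 and 6455 CPM on chow and 7165, 5829, 5624 and 6260 CPM in HFD-LNAME, with the highest and the lowest library both in HFD-LNAME (0.04 ± 0.08). Atp5e, the small epsilon subunit, had the largest value of the 5 at 0.10 ± 0.14 (0.23 ± 0.11 without HFD-LNAME 3), with 255 CPM in HFD-LNAME 3 and 349 to 443 CPM in the other HFD-LNAME libraries. The 4 peripheral stalk members Atp5f1, Atp5h, Atp5j and Atp5o, which hold the head still, were all below 0, from -0.11 to -0.05. Atp5s, a coupling factor and not a subunit, had -0.19 ± 0.10, and Atp5sl, a related protein, 0.05 ± 0.08.

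The c ring turns as protons pass and is made of 1 protein that 3 genes encode with different import signals. Atp5g1 stood at 781, 824, 813 and 879 CPM on chow and 855, 743, 556 and 733 CPM in HFD-LNAME (log2 fold change -0.19 ± 0.11, edgeR adjusted p 0.636). HFD-LNAME 2, 3 and 4 were below the chow range and HFD-LNAME 1 within it. The log2 fold change of Atp5g1 was -0.08 ± 0.08 without HFD-LNAME 3 and 0.00 ± 0.11 among the libraries without atrial transcripts. Its share of the counts of the 3 genes was 33.6, 32.8, 32.9 and 33.5% on chow and 31.6, 32.5, 30.1 and 29.0% in HFD-LNAME, below the chow range in all 4. The log2 ratio of Atp5g1 to Atp5g3 was -0.78 ± 0.03 on chow and -0.94 ± 0.11 in HFD-LNAME, and that of Atp5g2 to Atp5g3 -2.56 ± 0.06 and -2.54 ± 0.04. These c ring ratios were picked after the values were seen and were given no test.

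The level of most members set HFD-LNAME 3 apart from the rest of its group. HFD-LNAME 3 was the lowest of the 8 libraries for 75 of 84 members: 33 of 36 in complex I, 3 of 4 in complex II, 9 of 9 in complex III, 14 of 18 in complex IV and 16 of 17 in complex V. Its median log2 deviation from the members' means over 8 libraries was -0.35. The same median was -0.05, 0.07, 0.02 and 0.11 in Normal Chow 1 to 4 and 0.12, -0.07 and 0.11 in HFD-LNAME 1, 2 and 4. HFD-LNAME 4 was the highest library for 29 members, Normal Chow 4 for 25 and HFD-LNAME 1 for 21. Members that were not lowest in HFD-LNAME 3 included Ndufs1, Ndufv1, Sdha, Cox4i2, Cox6b2, Cox8a, Ndufa4l2 and Atp5sl.

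**Figure D4:**
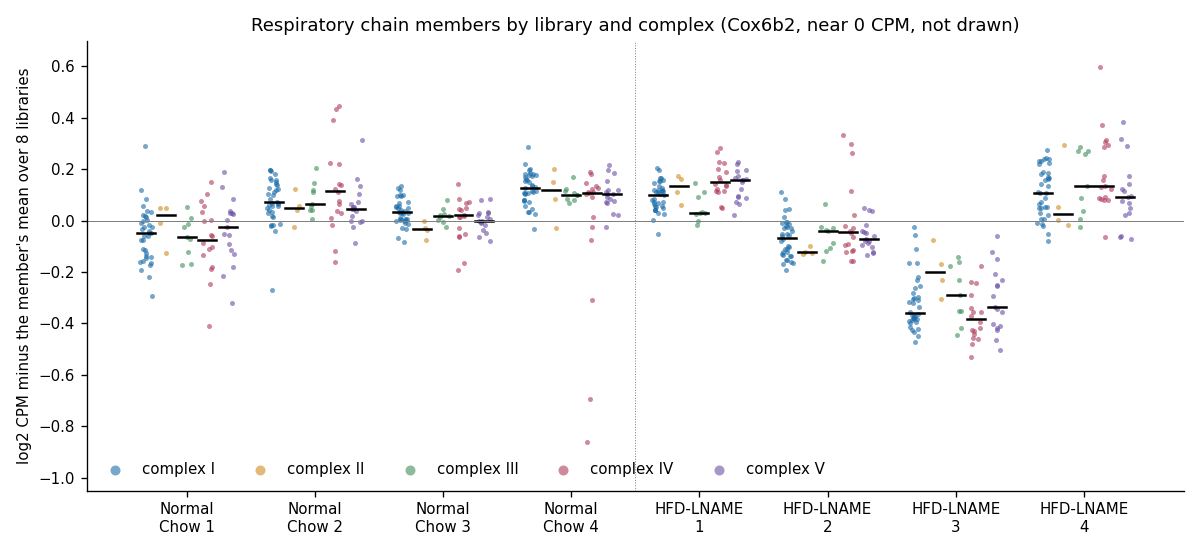
Log2 CPM of each member minus its own mean over the 8 libraries, by library and complex, with black bars at the median of each complex (Cox6b2 counts in the medians but is not drawn). The medians of HFD-LNAME 3 lie between -0.20 (complex II) and -0.38 (complex IV), below those of the other 7 libraries, which lie between -0.12 and 0.16.

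The low values of HFD-LNAME 3 came with transcript length, in members and in other genes alike. Lengths were those of principal transcripts of GENCODE on GRCm38, and members ran from 360 to 4715 bases with a median of 863. In HFD-LNAME 3 the median log2 deviation was -0.39 for the 19 members of up to 600 bases, -0.37 for 28 of 601 to 1000 bases, -0.30 for 14 of 1001 to 1500 bases, -0.19 for 12 of 1501 to 2000 bases and -0.07 for 5 of 2001 to 3000 bases. Other genes with at least 5 CPM had -0.40, -0.24, -0.15, -0.07 and -0.02 in these classes. The 4 members of over 3000 bases departed from the order at -0.32, where other genes had 0.06. Across 82 members the Spearman correlation of deviation with length was 0.54 in HFD-LNAME 3, and across 9349 other genes it was 0.42. All points of a library share its preparation and depth, and genes are not independent.

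HFD-LNAME 4 leaned the other way, with 0.24 for members of up to 600 bases and 0.02 for those of 2001 to 3000 bases, and a Spearman correlation of -0.46 over members and -0.23 over other genes. Up to 1000 bases, members deviated by -0.38 in HFD-LNAME 3 and 0.16 in HFD-LNAME 4, where other genes of such length deviated by -0.26 and 0.12. With the length trend of each library removed, the members' median log2 fold change was -0.02, with 48 of 84 below 0. HFD-LNAME 3 was the lowest library for the sum of the cardiomyocyte markers, though not for each marker. Tnnt2 was lowest in HFD-LNAME 2 and Actc1 in HFD-LNAME 1, while Myh6, Myl2, Myl3 and Tnni3 were lowest in HFD-LNAME 3. The markers summed to 77665 CPM in HFD-LNAME 3 and 82016 in HFD-LNAME 2, and to 88493 to 104485 in the other 6. For the members HFD-LNAME 2 was near Normal Chow 1, with median log2 deviations of -0.07 and -0.05. The parts of depth and cell content in the members' levels were not tested.

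**Figure D5:**
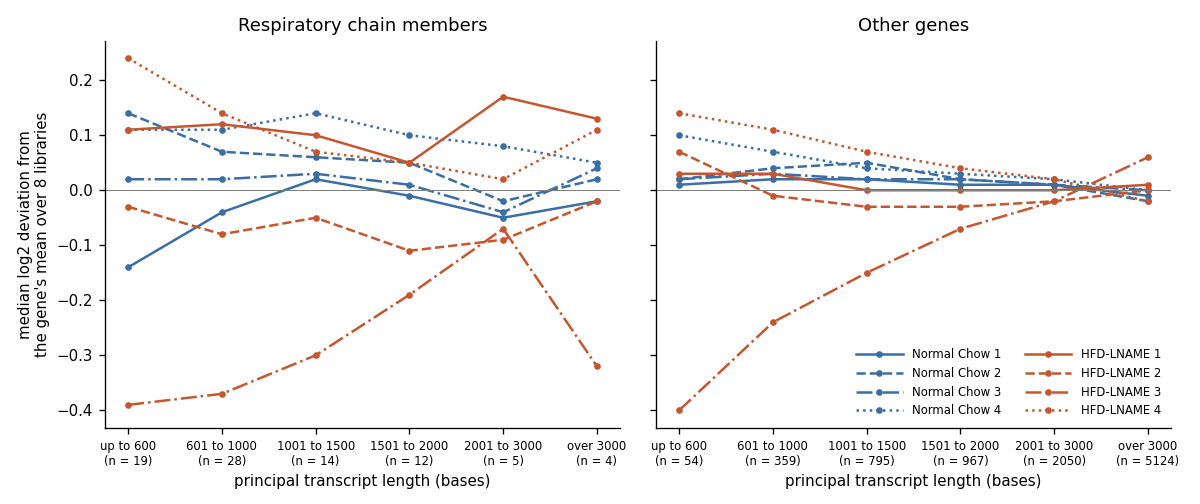
Median log2 deviation of genes from their mean over 8 libraries by class of transcript length, for members (left) and other genes (right), 1 line per library, with the number of genes under each class. HFD-LNAME 3 is the lowest line for short transcripts in both panels, at -0.39 and -0.40 up to 600 bases, and approaches 0 by 2001 to 3000 bases.

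HFD-LNAME 2 and 3, the libraries with the most Plin1, were also those of their group with the lowest member levels. The members' median log2 deviations were -0.07 and -0.35 there, against 0.12 and 0.11 in HFD-LNAME 1 and 4. Leaving out HFD-LNAME 2 and 3 therefore had to move the members up, and the part of fat tissue was not tested. The members' median log2 fold change was then 0.08, with 16 of 84 below 0. At an unadjusted p under 0.05, 7 members were higher (Atp5e, Cox6a2, Cox6c, Cox7a2, Cox8a, Ndufv1 and Sdhc), against 3.97% of all genes, and 0 were lower, against 3.73%. The lowest edgeR adjusted p of a member was 0.531 (Cox6c). In 16 members the groups did not overlap with HFD-LNAME higher, against 8.25% of all genes. With atrial transcripts as a block the median was -0.04. Within the libraries with Myl7 above 200 CPM it was -0.06, and within the rest, with a single HFD-LNAME library, 0.02. In these fits 0 of 84 members passed an edgeR adjusted p of 0.05.

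Genes that serve the complexes were taken from lists by known role. Atpif1, the inhibitor that binds ATP synthase to stop it running backwards, stood at 142, 132, 127 and 168 CPM on chow and 117, 102, 95.3 and 119 CPM in HFD-LNAME. All HFD-LNAME libraries were below all chow libraries. The log2 fold change was -0.39 ± 0.11 with an unadjusted edgeR p of 0.00332 and an edgeR adjusted p of 0.265, which did not pass. The DESeq2 adjusted p was 0.0528, just above the threshold, and that of limma-voom was 0.269. The log2 fold change was -0.33 ± 0.11 without HFD-LNAME 3 and -0.32 ± 0.10 with the length trend removed.

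Assembly factors build the complexes without staying in them. Of 54 listed, 50 were tested, 0 passed an adjusted p, and at an unadjusted p under 0.05 there were 9 lower (18.0%, against 4.54% of all genes) and 0 higher. Their median log2 fold change was -0.12, with 45 of 50 below 0. Ndufaf1, an assembly factor of complex I, stood at 58.8, 61.2, 61.9 and 66.8 CPM on chow and 54.5, 47.9, 49.1 and 51.2 CPM in HFD-LNAME (log2 fold change -0.29 ± 0.08, edgeR adjusted p 0.246), with no overlap. Taco1, needed to translate a complex IV subunit inside mitochondria, stood at 54.4 ± 1.60 and 46.3 ± 3.19 CPM, also with no overlap (-0.23 ± 0.08, edgeR adjusted p 0.364). The others were Timmdc1 (-0.25), Sdhaf4 (-0.30), Ttc19 (-0.20) and Tmem242 (-0.22), and Ndufaf2, Ndufaf5 and Tmem186, which lie outside the rule for named genes. Without HFD-LNAME 3 the median of the list was -0.09, with 7 lower, against 4.18% of all genes, and 1 higher. Without Normal Chow 3 there were 5 lower, against 3.99%, and among the libraries without atrial transcripts 4, against 3.61%. Beside this list, 3 of 10 cardiomyocyte markers were lower at the same threshold, and their part in it was not tested. Whether assembly factors differ from the subunits was not tested.

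Among 19 genes of electron carriers and ubiquinone synthesis the median log2 fold change was -0.08, and 3 were lower at an unadjusted p under 0.05, against 4.54% of all genes. Without HFD-LNAME 3 the median was -0.02 with 1 lower (Pdss1), against 4.18% of all genes, and without Normal Chow 4 it was -0.03 with 1 lower (Pdss1), against 3.77%. Pdss1 and Pdss2, the pair that makes the tail of ubiquinone, stood at 19.1 ± 2.04 and 14.5 ± 1.98 CPM and at 34.0 ± 3.35 and 28.7 ± 1.84 CPM on chow and HFD-LNAME (-0.40 ± 0.13 and -0.24 ± 0.10, edgeR adjusted p 0.355 and 0.460). Dhodh, which feeds electrons to ubiquinone during pyrimidine synthesis, was the third (-0.29 ± 0.12). Cytochrome c (Cycs), outside the rule, stood at 305 ± 16.3 and 283 ± 42.2 CPM. Of 11 genes that copy and transcribe mitochondrial DNA, 1 was lower, the mitochondrial RNA polymerase Polrmt, at 46.4 ± 5.43 and 39.6 ± 1.12 CPM with no overlap (-0.23 ± 0.09, edgeR adjusted p 0.471), against 4.54% of all genes. That count was 0 in the fits without HFD-LNAME 3, HFD-LNAME 4, Normal Chow 3 or Normal Chow 4, with the atrial block, and within the libraries with or without atrial transcripts. Of 5 genes for phosphate and adenine nucleotide transport, 0 were called in either direction.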

How the data were processed

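Raw counts for each gene in 8 libraries were deposited by the authors, with a table of their own comparison that holds log2 fold changes, a test score, p-values and adjusted p-values; its 8 per-sample columns were not used. The submitters' processing notes list STAR 2.6, Trim Galore 0.4.0, bcl2fastq 1.8.4 and DESeq2 1.22.1. They name a human build although the rows carry C57BL/6NJ mouse identifiers, so no coordinates are taken from the files. How reads were counted, by strand and between similar genes, is not given in the sources used here. Overlapping genes on opposite strands therefore cannot be told apart. Per the labels' protocols, libraries were made with an Illumina TruSeq RNA kit. Unnamed rows, with 9.19% to 10.5% of each library's counts, were kept.

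From the deposited counts, all 14875 genes that passed the filterByExpr filter (minimum count 10) entered a test in edgeR 4.0.16 (R 4.3.3): the quasi-likelihood test, TMM factors, no covariate, Benjamini-Hochberg adjustment over all genes and a threshold of 0.05. All 84 members passed the filter, and the lowest had a mean of 71.9 counts. Isoform ratios are log2 of counts plus 0.5 and were tested with a two-sided exact permutation test in scipy 1.17.1. Transcript lengths are of the principal protein-coding transcripts of GENCODE M21 on GRCm38. Promoter sequences are from RefSeq. Totals ran from 31522074 to 52053633 counts.

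The steps were tested on simulated data. Alternatives were DESeq2 1.42.0, limma-voom (limma 3.58.1), other scalings, no low-count filter, a prior count of 2 in the ratios and leaving out each library, and, chosen after seeing the data, leaving out HFD-LNAME 2 and 3, atrial transcripts (Myl7 above 200 CPM) as a block or as a split of the libraries, and removal of the length trend. Replicate numbers follow accession order and pair nothing. The members and lists were chosen with earlier results of these data known, so counts over them are descriptions. Named genes follow a rule: members with an unadjusted p under 0.05 or groups that do not overlap, the highest and lowest of each complex with at least 5 CPM, core subunits, isoform families, the head and c ring of complex V, Cox7a2l and Atpif1, and up to 6 genes a list by smallest p. A gene that the rule covers is not reported here.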

Additional observations from a re-analysis of the deposited data

Results flagged for a closer look

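Among 188 groups of 4 libraries examined (members, isoform ratios and sums by complex), 4 held a library far from the other 3. Chance gives about 1 in 20, a larger share than 4 of 188, so the number flagged is not above chance. Ndufab1 stood at 293 CPM in HFD-LNAME 3 and at 368 to 374 CPM in the other HFD-LNAME libraries. Cox4i2 stood at 3.34 CPM in HFD-LNAME 3 and at 5.35 to 5.69 CPM in the others. Cox6b2 stood at 4.03 CPM in HFD-LNAME 1 and at 1.37 to 1.74 CPM in the others, within few counts. The log2 ratio of Cox8b to Cox8a was 4.56 in Normal Chow 4 and 4.31 to 4.32 in the other chow libraries. Without that library the HFD-LNAME minus chow difference of the ratio was -0.40 in place of -0.46.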

How the results depend on the processing

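The count of members past an adjusted p of 0.05 was 0 under every planned and added alternative run. Counts at an unadjusted p under 0.05 moved. Higher: 1 with DESeq2, with no low-count filter, with the atrial block, within libraries with and within libraries without atrial transcripts, and with the length trend removed, 7 without HFD-LNAME 2 and 3, and 0 to 2 over the fits that left out 1 library. The share of all genes was 4.2% to 5.95%, 3.97% and 4.09% to 5.53% in these 3 sets of fits. Lower: 2 with upper-quartile factors and with library totals alone, 0 without HFD-LNAME 2 and 3, with the atrial block, within either set of libraries and with the length trend removed, and 0 to 3 leaving out 1 library, where 3.29% to 5.01% and, leaving out 1 library, 3.72% to 4.78% of all genes were lower. Members whose groups did not overlap numbered 6 lower with library totals alone (3.06% of all genes) and 1 to 6 leaving out 1 library (4.64% to 5.76%), and 16 higher without HFD-LNAME 2 and 3 (8.25%) and 0 to 3 leaving out 1 library (4.09% to 5.54%).

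The median log2 fold change of all members ran from -0.13 to 0.02 leaving out 1 library and turned positive only without HFD-LNAME 3. Without HFD-LNAME 2 and 3 the complex III median was 0.0764, and within libraries without atrial transcripts the complex II median was 0.0782. For the latter fit 1 HFD-LNAME library stands alone and is assumed to vary like the chow pair. The Cox8b to Cox8a difference ran from -0.51 to -0.38 leaving out 1 library, each with an unadjusted exact permutation p of 0.0571, the smallest that 3 against 4 libraries allow, so these p-values say nothing of its stability. The causes were not tested. No paired analysis was possible because replicate numbers follow accession order and pair no samples. The member with the fewest counts was Cox6b2, with a mean of 71.9 a library.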
